A study of Mus musculus with 6 samples.

Results

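The proteasome genes of mouse embryonic stem (ES) and extraembryonic endoderm (XEN) cells were taken from the deposited tables as every gene whose symbol begins with Psma to Psmg and a digit, together with Pomp, Adrm1 and Shfm1. The tables list Shfm1 under its newer symbol, Sem1, and the rule found 53 genes among 17710. They are 7 subunits of the alpha ring and Psma8, 7 constitutive subunits of the beta ring, 3 inducible catalytic subunits, Psmb11, 10 base and 9 lid subunits of the regulatory particle, 5 activators, 1 inhibitor, 8 assembly factors and Psmc3ip. Psmc3ip matches by its name alone: it encodes a partner of the recombinases of meiosis. It is counted among the members below unless stated otherwise, and its values are given apart.

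Each group held 3 libraries of total RNA, lettered A, B and C and read on a BGISEQ-500 instrument. The ES cells stand for the pluripotent epiblast, came from strain 129/Ola and grew in N2B27-2iLIF on gelatin. The XEN cells stand for the lineage of the yolk sac endoderm, came from strain ICR and grew in RPMI1640+15%FBS+Glut+BME. Both were grown without feeder cells and without any other treatment. The labels name neither the lines nor separate cultures, so a p-value here speaks of library spread that could be technical only. Cell type, strain and medium all differ between the groups and cannot be told apart. The labels were checked against markers: the 5 ES cell markers were all lower, and the 6 XEN cell markers all higher, in XEN libraries. Libraries held 20675311 to 22375875 expected counts, a total at which 3 counts in a library come to 0.134 to 0.145 CPM, the unit of counts scaled to library size.

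The proteasome breaks down proteins tagged with ubiquitin. Its core particle is a barrel of outer alpha rings, which gate the entrance, and inner beta rings, which hold the active sites. The regulatory particle caps the barrel: its lid and base receptors catch and strip the ubiquitin chain, and a ring of ATPases in the base unfolds the protein and threads it into the core. Interferon replaces the active subunits by inducible ones, and the result is the immunoproteasome, known for cutting peptides for MHC class I. Other activators can dock in place of the regulatory particle. When proteasome activity falls short, the transcription factor encoded by Nfe2l1 raises transcription of most subunit genes together through antioxidant response elements.

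Proteasome genes differed little between the cell types. Of the 49 members with enough counts to test, 23 were higher and 8 lower in XEN libraries and 18 did not pass (edgeR, adjusted p under 0.05 over 13581 tested genes). That is 63.3% of the tested members, where 88.7% of all tested genes were called. The higher calls made up 46.9% of the members against 42% of all tested genes, and the lower calls 16.3% against 46.7%. Without Psmc3ip, 23 of 48 tested members were higher (47.9%) and 7 lower (14.6%), or 62.5% called. The sizes were small: the median absolute log2 fold change was 0.16 over members and 0.92 over all tested genes, and 39 of the 49 members lay within 0.5 of no change. A change of more than 2-fold passed its test (edgeR glmTreat) for 1 member, Psma8, or 2.04% of the members against 42.7% of all tested genes. The libraries of both groups did not overlap in CPM for 65.3% of the members and for 89.4% of all tested genes. In bulk RNA, fewer cells holding a transcript and less of it per cell cannot be told apart. Exons of Psma4, Psmb7, Psmb9, Psmc3, Psmc3ip, Psmd13 and Psme1 overlap another gene on the opposite strand, and whether the counting used strand is not given in the sources used here, so reads of these 7 and their neighbours may not be told apart. The 4 members left untested were Psmb8, Psmb9, Psmb11 and Psme2b, which had few or no counts in either group.

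The balance of higher and lower calls rested on how libraries were scaled. With trimmed-mean (TMM) factors the median log2 fold change was 0.08 over members and -0.07 over all tested genes. Upper-quartile factors moved the median of all genes by -0.15 and gave 13 members higher and 22 lower. Library totals alone moved it by -0.13 and gave 13 and 21. The members' median stood 0.15 above that of all tested genes, a difference that a scaling factor cannot move, since it shifts all genes alike. It was 0.24 with no filter on low counts and 0.11 with a mean of at least 1 CPM. A group of 13 members was higher and 8 were lower under all 17 settings run. These calls held under the 4 scalings tried, and other scalings were not run. The 13 are Psma5, Psma7, Psmb2, Psmb3, Psmb5, Psmc1, Adrm1, Psmd2, Psmd3, Psmd6, Psmd8, Sem1 and Psmd9. The 8 are Psma8, Psmc3, Psmd4, Psmd12, Psme4, Psmg1, Psmd5 and Psmc3ip. The other 10 higher calls, namely Psmb4, Psmb6, Psmb7, Psmc4, Psmc6, Psmd1, Psmd11, Psmd13, Psme3 and Psmg3, were not higher calls under upper-quartile factors or library totals.

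**Figure D1:**
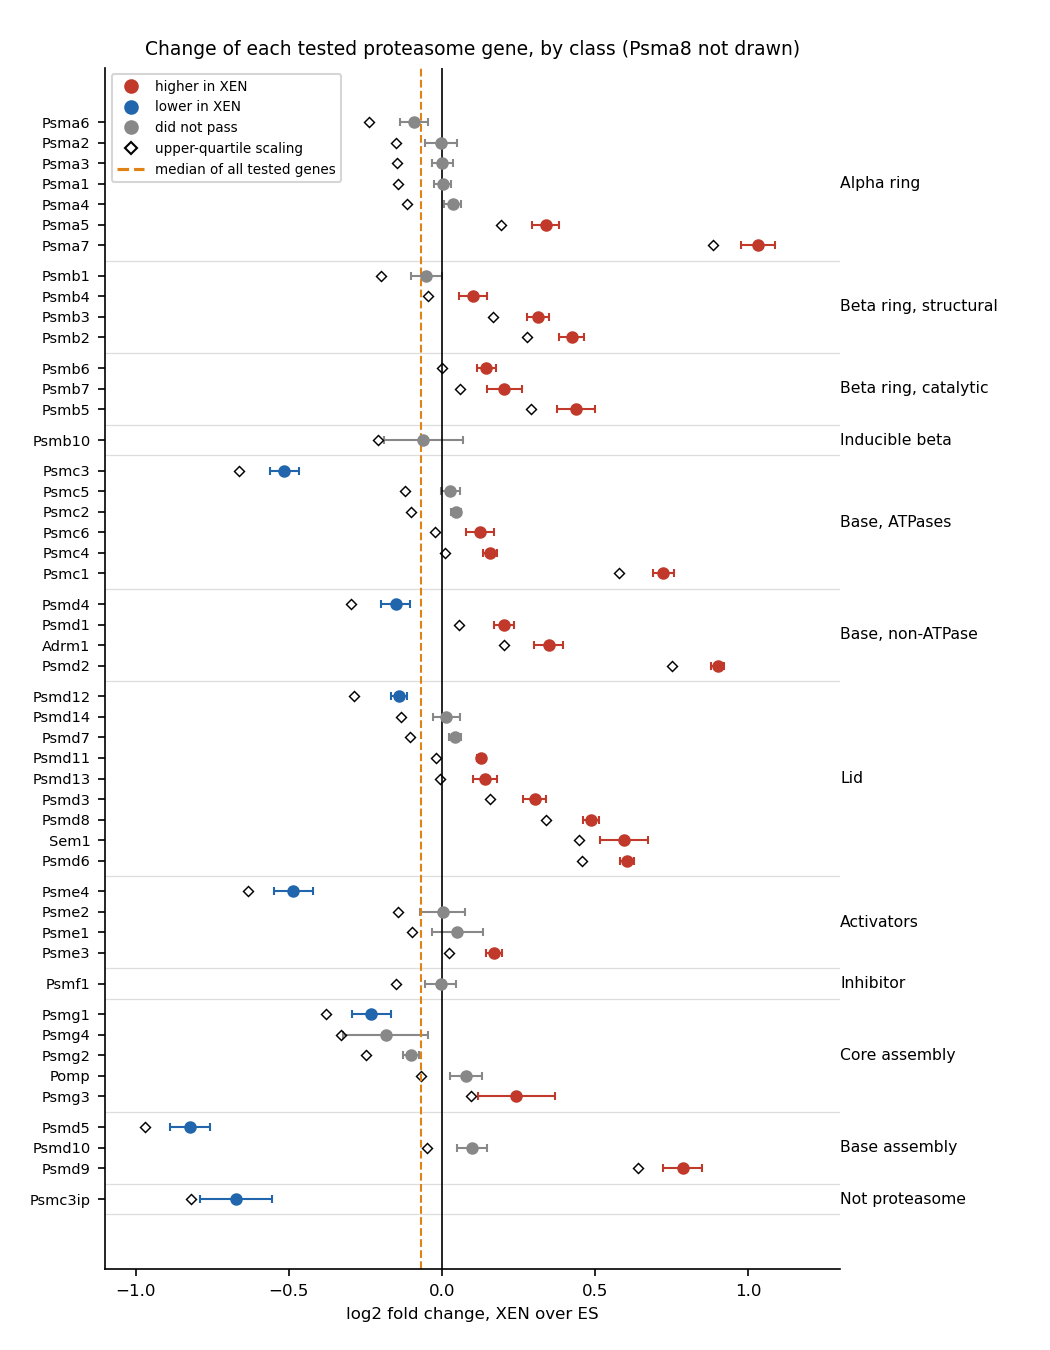
Log2 fold change of XEN over ES (x axis) of each tested member except Psma8, by class (y axis), with Psmc3ip drawn as a class of its own. Filled points are TMM-scaled values with standard errors over 3 and 3 libraries, coloured by the edgeR call, open diamonds are upper-quartile values and the dashed line is the median of all tested genes, at -0.07. Most points lie within 0.5 of no change; Psma7 lies farthest right at 1.03 and Psmd5 farthest left at -0.82, and diamonds lie to the left of every point. Among genes drawn as higher, the diamonds of Psmb4, Psmb6, Psmc6, Psmd11 and Psmd13 lie past 0.

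**Figure D2:**
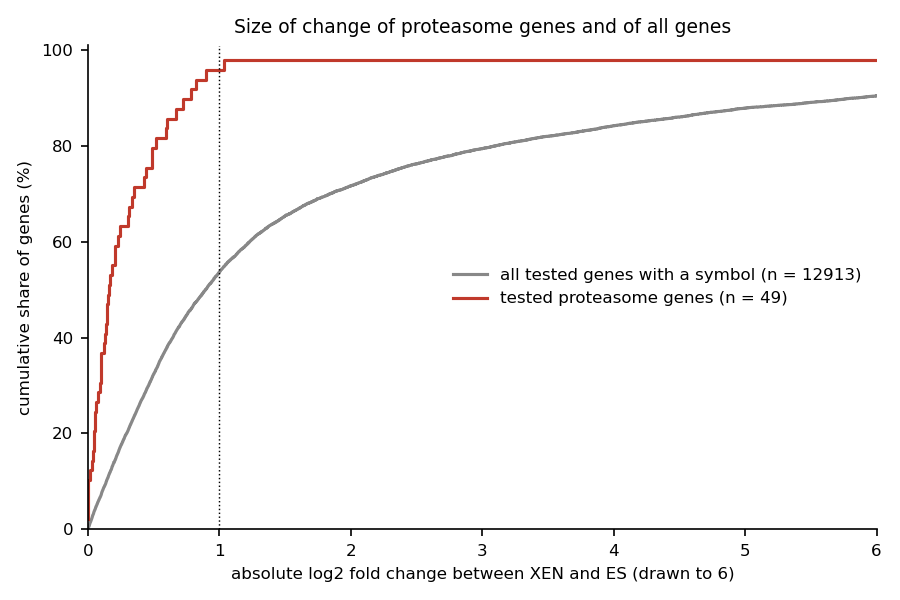
Cumulative share of genes in percent (y axis) by the absolute log2 fold change between XEN and ES (x axis, drawn to 6). Lines are the 49 tested members, Psmc3ip among them, and all tested genes with a symbol. The dotted line marks a log2 change of 1, which Psma7 at 1.03 and Psma8, beyond the right edge, exceed.

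Levels of different genes were set side by side in FPKM, which divides by transcript length. The 14 constitutive core subunits summed to 2221 ± 53.4 FPKM in ES (SD, n = 3) and 2361 ± 77.2 FPKM in XEN libraries, and the 19 regulatory particle subunits to 2126 ± 36.6 and 2301 ± 48.6 FPKM. Summed counts of the 52 proteasome genes made up 0.639% ± 0.0106 of all counts in ES and 0.659% ± 0.0115 in XEN libraries. Within the core, the FPKM level ran from Psma3, the lowest, to Psmb3, the highest, in both groups. Psma3 stood apart at 29.5 ± 0.99 FPKM in ES and 27.0 ± 0.64 in XEN libraries. An unnamed gene model that carries the same orthology term held 64.2% to 67.1% of the joint counts of both, and with it Psma3 came to 200.0 ± 9.34 and 196.8 ± 13.6 FPKM. Reads of near-identical sequence may be split between them, so the level of Psma3 alone is uncertain. Without Psma3 the core levels spanned 2.36-fold in ES libraries, from Psma5 to Psmb3, and 2.33-fold in XEN libraries, from Psma1 to Psmb3. Regulatory particle levels spanned 1.89-fold in ES libraries, from Psmd13 to Psmc5, and 2.58-fold in XEN libraries, from Psmd14 to Psmc1.

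In the alpha ring, the genes for the alpha 4 position differed most. Of 8 tested genes, 2 were higher (Psma7 and Psma5), 1 was lower (Psma8) and 5 did not pass. That is 37.5% called, against 88.7% of all tested genes, where 42% were higher and 46.7% lower. Psma7 (gene identifier 26444), which encodes the alpha 4 subunit, had 105.4, 99.4 and 103.8 CPM in the ES libraries and 203.0, 224.9 and 203.0 CPM in the XEN libraries. Every XEN library held about double the ES level, and the groups lay far apart. The log2 fold change was 1.03 ± 0.06 (SE; edgeR adjusted p = 5.04e-15), the largest rise of any member, although it did not pass the test for more than 2-fold (glmTreat adjusted p = 0.207). Psma5 rose less, with a log2 fold change of 0.34 ± 0.05 (edgeR adjusted p = 2.55e-07). The other 5 subunits, Psma1, Psma2, Psma3, Psma4 and Psma6, had log2 fold changes between -0.09 and 0.03 and did not pass, but all 5 were called lower under upper-quartile factors or library totals. Psma6 was also called lower without ES library B (log2 fold change -0.13) or without XEN library A (-0.10).

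Psma8 (gene identifier 73677) is the germline form of the alpha 4 subunit, known from the proteasome of spermatocytes, where it takes the place of the Psma7 product. It had 20.9, 22.1 and 22.5 CPM in the ES libraries and was not listed in any XEN library. The ES libraries together held 1479 counts and the XEN libraries 0. Measured against a limit of 3 counts over the XEN group, the level was at least 458-fold lower in XEN libraries (edgeR adjusted p = 3.06e-18). In FPKM, Psma8 made up 10.2% ± 0.53 (SD, n = 3) of the sum of Psma7 and Psma8 in the ES group and 0% in the XEN group, where 3 counts would be 0.0227% of the counts of both genes. This sum was 140.9 ± 3.28 FPKM in ES and 237.3 ± 15.0 FPKM in XEN libraries. With both genes counted, transcripts for the alpha 4 position still did not overlap between the groups.

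In the beta ring under TMM scaling, 6 of 7 constitutive subunits were higher, 0 were lower and Psmb1 did not pass (edgeR). The share called was 85.7%, against 88.7% of all tested genes, where 42% were higher and 46.7% lower. By DESeq2, 5 of the 7 subunits were higher and 0 lower, and 0 were lower at an unadjusted edgeR p under 0.05. Under upper-quartile factors or library totals, 3 were higher (Psmb2, Psmb3 and Psmb5) and 1 was lower (Psmb1). The 4 structural subunits have no active site. Among them Psmb2 (gene identifier 26445) had 93.6, 96.0 and 98.4 CPM in the ES libraries and 123.8, 134.6 and 128.3 CPM in the XEN libraries, with no overlap. That was a log2 fold change of 0.42 ± 0.04 (edgeR adjusted p = 8.99e-09). Psmb3 followed at 0.31 ± 0.04 (edgeR adjusted p = 2.93e-07). Psmb4 passed at 0.10 ± 0.05 (edgeR adjusted p = 0.0307) but not by DESeq2 (0.09), nor when ES library A or B, or XEN library B or C, was left out, where its log2 fold change ran from 0.07 to 0.10.

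The 3 constitutive active sites are encoded by Psmb5 (chymotrypsin-like), Psmb6 (caspase-like) and Psmb7 (trypsin-like). Psmb5 (gene identifier 19173), the main target of the inhibitor bortezomib, had 85.4, 83.04 and 84.7 CPM in the ES libraries and 109.8, 124.3 and 109.0 CPM in the XEN libraries. Its log2 fold change was 0.44 ± 0.06 (edgeR adjusted p = 4.55e-08), and no XEN library reached down to the ES range. Psmb6 (gene identifier 19175) had 137.9, 138.6 and 143.7 CPM against 150.3, 158.9 and 155.6 CPM, a log2 fold change of 0.15 ± 0.03 (edgeR adjusted p = 0.00191). Psmb7 (gene identifier 19177) had 137.4, 138.4 and 145.3 CPM against 152.5, 172.0 and 160.7 CPM, a log2 fold change of 0.20 ± 0.06 (edgeR adjusted p = 2.62e-04). The groups of Psmb6 and Psmb7 were apart in CPM but overlapped in FPKM, and under upper-quartile factors neither was called, with log2 fold changes of -0.0012 for Psmb6 and 0.06 for Psmb7. An exon of Psmb7 overlaps Nek6 on the opposite strand over 253 bases.

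Promoters of members were searched for the elements named for proteasome and interferon control, in RefSeq windows of 300 bases (250 before to 50 after the start of transcription, GRCm38.p6), which held 45 of the 53 members. The antioxidant response element TGACNNNGC, searched on both strands, was present in 8 of the 45 genes (17.8%) and in 13.99% of all genes in the table. Of these 8 genes, 6 were higher in XEN libraries (Adrm1, Psmb5, Psmb6, Psmc6, Psmd9 and Sem1) and 2 were lower (Psmd12 and Psme4). Of the 6, Psmb6 and Psmc6 turned on the scaling. Among all tested members 46.9% were higher and 16.3% lower, and among all tested genes 42% and 46.7%. The ETS element CCGGAAG, common in promoters of housekeeping genes, was present in 17 of the 45 genes (37.8%) against 9.93% of all genes. Of these 17, 9 were higher, 5 were lower and 3 did not pass, and upper-quartile factors or library totals gave 4 higher and 7 lower. The interferon gamma activated site TTCNNNGAA was present in 3 (6.67%) against 9.55%, and the CCAAT box in 16 (35.6%) against 41.1%. No occurrence of one searched element overlapped another in these members, apart from a CCAAT box with an ETS element in Psma6 and in Psmc2. A match describes the letters only and does not show binding, and a link between matches and calls was not tested. Stretches around an antioxidant response element are shown for Psmb5 (chr14:54618009-54618067, minus strand) and Psmb6 (chr11:70525323-70525366, plus strand), the catalytic subunits that hold one. For the inducible subunit Psmb8 the stretch around the interferon gamma activated site is shown (chr17:34198073-34198131, plus strand). All run 5′ to 3′ on the strand of the gene, from RefSeq on GRCm38.p6, with the element in capitals.
Psmb5: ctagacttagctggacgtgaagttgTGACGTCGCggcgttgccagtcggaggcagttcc
Psmb6: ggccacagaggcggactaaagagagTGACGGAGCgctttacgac
Psmb8: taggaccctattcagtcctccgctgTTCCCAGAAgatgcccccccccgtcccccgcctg

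The inducible subunits of the immunoproteasome were nearly absent from both cell types. Psmb8 (gene identifier 16913), the inducible counterpart of Psmb5, had 1 count in the 3 ES libraries together and 1 count in the 3 XEN libraries. Psmb9 (gene identifier 16912), the counterpart of Psmb6, had 0.184, 0.218 and 0.217 CPM in the ES libraries and 0.0470, 0.0466 and 0.0496 CPM in the XEN libraries, from 14 and 3 counts in all. The ratio of ES over XEN was 4.34, with an exact Clopper-Pearson 95% interval of 1.21 to 23.5 that covers counting error only. With no filter on low counts, Psmb9 was called lower in XEN libraries (log2 fold change -1.98, edgeR adjusted p = 0.0382). An exon of Psmb9 overlaps Tap1 on the opposite strand over 212 bases, and Tap1 was higher in XEN libraries (log2 fold change 1.71 ± 0.18, edgeR adjusted p = 3.16e-09). Psmb10 (gene identifier 19171), the counterpart of Psmb7, was the inducible subunit with the highest level, at 5.30, 5.05 and 6.69 CPM in the ES libraries and 5.50, 5.68 and 5.16 CPM in the XEN libraries. The groups of Psmb10 overlapped, and its log2 fold change of -0.06 ± 0.13 did not pass (edgeR adjusted p = 0.666).

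Set against the constitutive partner in FPKM, Psmb10 made up 2.91% ± 0.35 (SD, n = 3) of the sum of Psmb10 and Psmb7 in ES libraries and 2.44% ± 0.14 in XEN libraries. Psmb9 made up 0.195% ± 0.019 and 0.0397% ± 0.0036 of its sum with Psmb6. For Psmb8 the share of the sum with Psmb5 was at most 0.0352% in any library. Psmb11 (gene identifier 73902), the thymus form of the Psmb5 position, had 2 counts in the ES and 2 in the XEN libraries. Blood and immune cells hold the inducible subunits as a rule, so their markers were read beside these levels. Of 12 such marker symbols, among which Adgre1 and the older Emr1 name the same gene, 8 were listed. Their summed counts ran from 5626 to 6333 in ES and from 154 to 250 in XEN libraries. Laptm5 held nearly all of the ES sum (267.9 ± 8.40 CPM against 0.0934 ± 0.0932), and Csf1r, a receptor of macrophages, was at 0.0444 ± 0.0015 CPM in ES and 9.16 ± 1.99 CPM in XEN libraries. Ptprc, which marks all white blood cells, Adgre1 and Lyz2 were not listed in any library, and Tyrobp was at 0 in the ES libraries and 0.0157 CPM in the XEN libraries. Itgam (0.602 ± 0.209 CPM) and Cd3e (0.601 ± 0.245 CPM) had counts in every ES library and 0 in the XEN libraries. Fcer1g had 0 in the ES libraries and counts in every XEN library (0.319 ± 0.0756 CPM). The part of these markers in the levels of the inducible subunits was not tested.

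**Figure D3:**
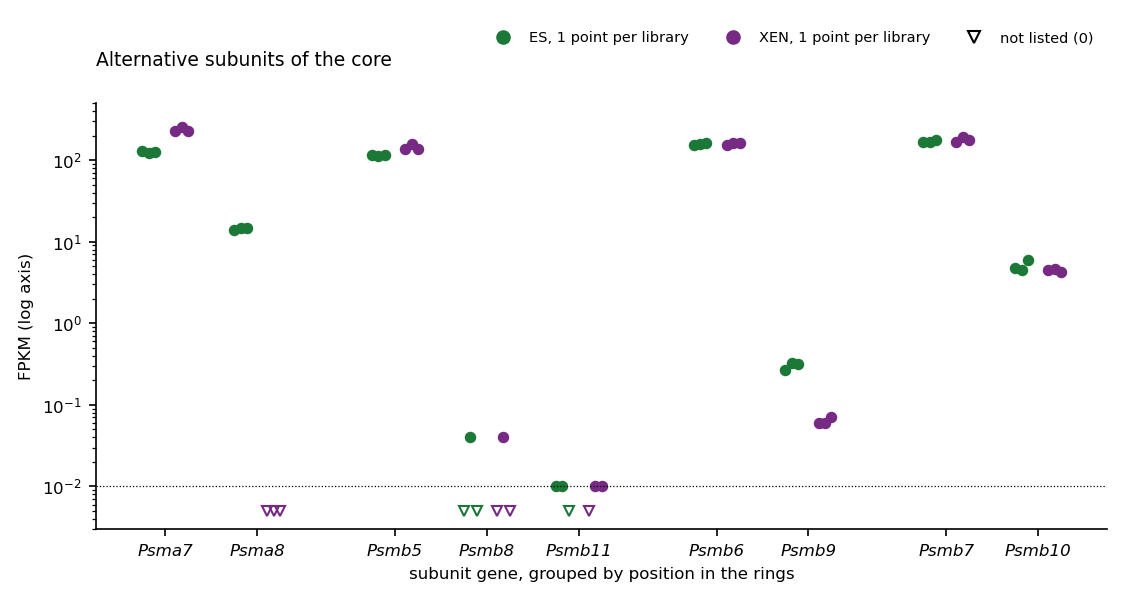
FPKM (y axis, log scale) of core subunits that can take the same position, in each library of ES and XEN cells; open triangles are libraries in which the gene was not listed, and the dotted line is the lowest listed level, 0.01 FPKM. Psma8 appears in the ES libraries only, and Psmb8, Psmb9 and Psmb11 lie below 0.5 FPKM throughout. Psmb10 makes up 2.32% to 3.30% of the sum of Psmb10 and Psmb7 over the libraries of both groups.

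Genes of MHC class I peptide loading use the peptides that proteasomes cut. Of 9 tested, 7 were higher and 2 lower in XEN libraries, where 42% of all tested genes were higher and 46.7% lower, and each scaling tried gave the same count. The heavy chain gene H2-K1 went from 2.997 ± 0.16 to 97.9 ± 3.83 CPM (log2 fold change 5.03 ± 0.05, edgeR adjusted p = 9.12e-24). H2-D1 had a log2 fold change of 3.90 ± 0.11 (edgeR adjusted p = 6.37e-20), and B2m, the light chain, 3.36 ± 0.05 (edgeR adjusted p = 1.51e-22). Among 11 tested interferon regulators of the inducible subunits, 6 were higher and 5 lower. All 11 were thus called, beside 88.7% of all tested genes, where 42% were higher and 46.7% lower. Irf1, a transcription factor that acts on the promoters of inducible subunits, was at 35.1 ± 1.35 CPM in ES and 2.21 ± 0.14 CPM in XEN libraries (log2 fold change -3.98 ± 0.06, edgeR adjusted p = 6.28e-20). The interferon gamma receptor genes moved the other way, Ifngr1 with a log2 fold change of 2.70 ± 0.09 (edgeR adjusted p = 6.39e-15) and Ifngr2 with 2.30 ± 0.04 (edgeR adjusted p = 1.20e-19).

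In the base, changes differed between subunits of the same ring. Under TMM scaling 6 of 10 tested genes were higher, 2 were lower and 2 did not pass. The share called was 80.0%, against 88.7% of all tested genes, where 42% were higher and 46.7% lower. Under upper-quartile factors or library totals 3 were higher (Psmc1, Adrm1 and Psmd2) and 4 lower (Psmc2, Psmc3, Psmc5 and Psmd4). Psmc1 (gene identifier 19179), an ATPase whose tail helps to open the gate of the core, had 171.5, 180.3 and 182.5 CPM in the ES libraries and 286.1, 300.4 and 296.0 CPM in the XEN libraries. The log2 fold change of 0.72 ± 0.03 (edgeR adjusted p = 2.22e-13) left the groups well apart. Psmc3 (gene identifier 19182), another ATPase of the same ring, went the other way, with 188.4, 192.5 and 201.5 CPM against 133.4, 143.1 and 131.1 CPM. The log2 fold change of Psmc3 was -0.51 ± 0.05 (edgeR adjusted p = 3.27e-10). An exon of Psmc3 overlaps Slc39a13 on the opposite strand over 97 bases. Of the other 4 ATPases, Psmc4 (0.16 ± 0.02) and Psmc6 (0.12 ± 0.05) passed as higher under TMM scaling, Psmc6 not without ES library B (0.08), and Psmc2 and Psmc5 did not pass, at 0.05 and 0.03. All 6 ATPases sit in a ring in equal number, while their FPKM levels ran from 84.1 ± 4.25 (Psmc3) to 197.5 ± 5.96 (Psmc1) in XEN libraries and from 105.9 ± 2.01 (Psmc2) to 152.9 ± 4.62 (Psmc5) in ES libraries.

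The non-ATPase subunits of the base are scaffolds and ubiquitin receptors. Psmd2 (gene identifier 21762), which encodes the scaffold Rpn1, had 283.9, 297.6 and 286.3 CPM in the ES libraries and 543.2, 539.7 and 536.5 CPM in the XEN libraries. With a log2 fold change of 0.90 ± 0.02 (edgeR adjusted p = 1.92e-15) it had the largest rise of the regulatory particle, and the libraries of each group lay close together. Psmd1, the other scaffold, had 0.20 ± 0.03, a call that was lost under upper-quartile factors and library totals. The receptor gene Adrm1 rose by 0.35 ± 0.05 on the log2 scale (edgeR adjusted p = 1.35e-07). Psmd4 (gene identifier 19185), which encodes the ubiquitin receptor Rpn10, had 147.9, 146.7 and 149.2 CPM against 124.9, 136.8 and 138.1 CPM. Psmd4 was lower, with a log2 fold change of -0.15 ± 0.05 (edgeR adjusted p = 0.00266). The promoters of the base subunits with the largest rise, Psmd2 (chr16:20651601-20651657, plus strand) and Psmc1 (chr12:100110149-100110205, plus strand), each hold an ETS element on the opposite strand, shown in capitals, close before the start of transcription. In the base, the ETS element was found also in Psmc6 and Adrm1, in Psmd4, which was lower, and in Psmc2, which did not pass. Adrm1 (chr2:180171401-180171459, plus strand) holds an antioxidant response element.
Psmd2: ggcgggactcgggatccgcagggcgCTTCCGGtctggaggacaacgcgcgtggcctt
Psmc1: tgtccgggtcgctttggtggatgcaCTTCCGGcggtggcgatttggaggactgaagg
Adrm1: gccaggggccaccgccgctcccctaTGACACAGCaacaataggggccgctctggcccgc

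The lid removes the ubiquitin chain. Of its 9 genes, 6 were higher under TMM scaling, 1 was lower and 2 did not pass. Thus 77.8% were called, against 88.7% of all tested genes, where 42% were higher and 46.7% lower. Under upper-quartile factors or library totals 4 were higher (Psmd3, Psmd6, Psmd8 and Sem1) and 3 lower (Psmd7, Psmd12 and Psmd14). Psmd6 (gene identifier 66413), a structural lid subunit, had 108.8, 106.4 and 105.0 CPM in the ES libraries and 158.8, 164.8 and 163.4 CPM in the XEN libraries. All XEN libraries were higher, by a log2 fold change of 0.60 ± 0.02 (edgeR adjusted p = 4.79e-12). Sem1, a small acidic subunit that ties lid subunits together and also binds BRCA2, had 0.59 ± 0.08 (edgeR adjusted p = 8.23e-09), and Psmd8 had 0.49 ± 0.03 (edgeR adjusted p = 1.43e-10). Psmd12 (gene identifier 66997) had 180.3, 178.3 and 189.1 CPM against 167.0, 164.4 and 165.4 CPM, all lower than the ES libraries. The log2 fold change of Psmd12 was -0.14 ± 0.03 (edgeR adjusted p = 0.00203). Psmd14, the deubiquitinase of the lid, and Psmd7, its partner, did not pass, at 0.01 ± 0.04 and 0.04 ± 0.02. Among the lid genes, the ETS element was found in Psmd6, in Psmd11 and Psmd13, both higher under TMM scaling, and in Psmd12, which was lower. The element in the promoter of Psmd6 (chr14:14120959-14121015, minus strand) is shown in capitals.
Psmd6: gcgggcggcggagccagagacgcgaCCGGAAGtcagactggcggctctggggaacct

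Among the activators, the nuclear ones moved in opposite directions under TMM scaling. Psme4 (gene identifier 103554), which encodes the large nuclear activator that acts without ATP, had 295.6, 300.5 and 295.8 CPM in the ES libraries and 231.2, 203.1 and 202.6 CPM in the XEN libraries. Its log2 fold change was -0.49 ± 0.06 (edgeR adjusted p = 7.16e-09), and the highest XEN library stayed below the lowest ES library. Psme3 (gene identifier 19192), whose product forms a ring of its own in the nucleus, had 248.8, 262.6 and 261.4 CPM against 293.9, 287.3 and 288.7 CPM. The log2 fold change of Psme3 was 0.17 ± 0.03 (edgeR adjusted p = 2.86e-04), but 0.02 under upper-quartile factors, where it was not called. Psme1 and Psme2 encode the interferon-inducible ring of the cytoplasm. Psme1 (gene identifier 19186) had 54.0, 51.3 and 60.2 CPM in the ES and 56.5, 60.7 and 54.2 CPM in the XEN libraries, and the groups overlapped. Psme2 (gene identifier 19188) had 37.6, 37.3 and 37.3 CPM against 34.9, 41.2 and 36.1 CPM, also overlapping. Neither passed, with log2 fold changes of 0.05 ± 0.08 and 0.0031 ± 0.07, although Psme2 was called lower under upper-quartile factors (-0.14).

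In FPKM, Psme4 made up 18.1% ± 0.49 (SD, n = 3) of the sum of Psme1 to Psme4 in ES libraries and 12.8% ± 0.99 in XEN libraries, with no overlap. Psme3 made up 39.5% ± 0.94 and 44.1% ± 1.29, and Psme1 with Psme2 42.5% ± 1.26 and 43.1% ± 2.02. These shares are set within a library and do not depend on its scaling. Psmf1 (gene identifier 228769), the inhibitor of the core that competes with activators, had 37.0, 40.8 and 39.7 CPM in the ES and 39.3, 40.3 and 37.6 CPM in the XEN libraries. Its log2 fold change of -0.0037 ± 0.05 did not pass (edgeR adjusted p = 0.949), although Psmf1 was called lower under upper-quartile factors (-0.15) and library totals (-0.14). Psme2b (gene identifier 621823), a copy of Psme2 with which it could share reads, had 1.32 expected counts in the ES libraries and was not listed in the XEN libraries. An antioxidant response element on the opposite strand spans the start of transcription of Psme4 (chr11:30771743-30771784, plus strand).
Psme4: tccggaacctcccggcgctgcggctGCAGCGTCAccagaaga

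Assembly factors guide the rings together and leave the finished particle. Of 8 tested, 2 were higher, 2 were lower and 4 did not pass under TMM scaling, and under upper-quartile factors or library totals 1 was higher (Psmd9) and 4 lower (Psmd5, Psmg1, Psmg2 and Psmg4). The factors of the base showed the widest split. Psmd9 (gene identifier 67151), the chaperone that holds ATPases Psmc6 and Psmc3, had 17.6, 16.2 and 18.9 CPM in the ES libraries and 30.3, 30.8 and 29.8 CPM in the XEN libraries. The log2 fold change of Psmd9 was 0.79 ± 0.06 (edgeR adjusted p = 5.24e-10). Psmd5 (gene identifier 66998), the chaperone that holds the pair with Psmc1, had 67.2, 66.9 and 70.0 CPM against 38.6, 35.6 and 41.3 CPM. It had the largest fall of any tested member still listed in XEN libraries, with a log2 fold change of -0.82 ± 0.07 (edgeR adjusted p = 2.94e-12). The third base chaperone, Psmd10 (gankyrin), did not pass at 0.10 ± 0.05. Psmd9 and Psmd5 thus lay on either side of the range of all other tested members but Psma7, Psma8 and Psmd2. The promoter of Psmd9 (chr5:123228134-123228192, plus strand) holds an antioxidant response element, in capitals.
Psmd9: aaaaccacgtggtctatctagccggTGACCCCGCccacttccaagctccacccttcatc

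The factors of the core differed less. Psmg1 (gene identifier 56088), which with Psmg2 starts the alpha ring, had 57.7, 50.5 and 57.4 CPM in the ES libraries and 46.3, 47.7 and 47.1 CPM in the XEN libraries, a log2 fold change of -0.23 ± 0.06 (edgeR adjusted p = 3.93e-04). Its partner Psmg2 had -0.10 ± 0.03 and did not pass. Psmg3 (gene identifier 66506) had 11.1, 9.67 and 9.78 CPM against 11.3, 13.9 and 10.8 CPM, so that 1 XEN library lay below an ES library. Its log2 fold change of 0.24 ± 0.13 passed (edgeR adjusted p = 0.0337), but not without ES library B (0.20), ES library C (0.21) or XEN library B (0.13), nor by DESeq2 (0.23) or limma-voom (0.24). Psmg4, the partner of Psmg3, did not pass at -0.18 ± 0.14, although it was called lower without XEN library B (-0.30). Pomp, which recruits the beta subunits, did not pass at 0.08 ± 0.05, although it was called higher without ES library C (0.12). Psmg3 also shares exon sequence with Gm26938 on the same strand over 237 bases.

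**Figure D4:**
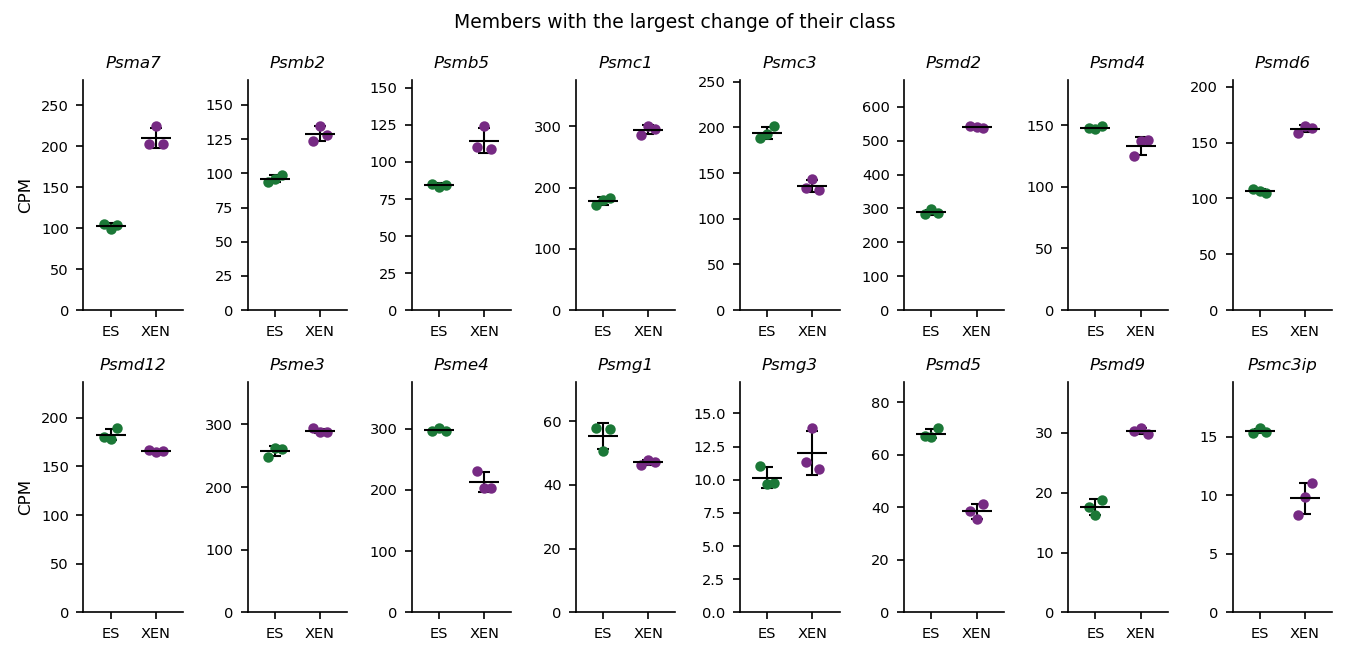
CPM (y axis, from 0) in each library of ES and XEN cells for the called members with the largest change of their class in each direction, except Psma8; bars are the mean and SD of 3 libraries. The groups are apart in every panel except Psmg3, and the call of Psme3 and Psmg3 was lost under upper-quartile factors.

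Psmc3ip (gene identifier 19183), which matches by name only, had 15.3, 15.7 and 15.4 CPM in the ES libraries and 8.32, 9.88 and 11.02 CPM in the XEN libraries. The groups did not overlap, and the log2 fold change was -0.67 ± 0.12 (edgeR adjusted p = 1.23e-06). An exon of Psmc3ip overlaps Mlx on the opposite strand over 385 bases.

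Genes that control the proteasome or work beside it were read from lists of textbook names, beside the 42% higher and 46.7% lower among all tested genes. Of 9 tested regulators of proteasome genes, 6 were higher, 2 were lower and 1 did not pass, and upper-quartile factors or library totals gave 6 higher and 3 lower. Nfe2l2, which encodes the related factor of the oxidative stress response, had 215.9 ± 2.46 CPM in ES and 104.8 ± 1.97 CPM in XEN libraries (log2 fold change -1.04 ± 0.02, edgeR adjusted p = 2.14e-16). Vcp, the segregase that pulls the Nfe2l1 product and other clients from the endoplasmic reticulum, went from 513.4 ± 12.3 to 942.7 ± 35.6 CPM (log2 fold change 0.88 ± 0.04, edgeR adjusted p = 9.55e-15). Bach1, a repressor at antioxidant response elements, had a log2 fold change of 0.60 ± 0.05 (edgeR adjusted p = 2.27e-11). Nfe2l1 itself, named here for its part in the background above, was close to level between the groups, at 292.6 ± 4.41 CPM against 265.7 ± 2.38 CPM (log2 fold change -0.14 ± 0.01, edgeR adjusted p = 0.00141).

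Of 14 tested enzymes and adaptors that bind the proteasome, 9 were higher, 1 was lower and 4 did not pass, and upper-quartile factors or library totals gave 7 higher and 4 lower. Ubqln2, which encodes a shuttle that carries ubiquitinated proteins to the proteasome, went from 95.7 ± 3.96 CPM in ES to 581.7 ± 9.60 CPM in XEN libraries (log2 fold change 2.604 ± 0.04, edgeR adjusted p = 1.18e-22). Its relative Ubqln4 went the other way, with a log2 fold change of -0.65 ± 0.03 (edgeR adjusted p = 1.22e-12). AI314180, the mouse gene of the proteasome adaptor ECM29, had 32.0 ± 1.91 CPM in ES and 76.8 ± 6.49 CPM in XEN libraries (log2 fold change 1.26 ± 0.09, edgeR adjusted p = 4.32e-12). Of the 6 ubiquitin and E1 genes, 4 were lower in XEN libraries under each scaling tried. Ubb, a polyubiquitin gene, went from 1512 ± 53.7 to 914.8 ± 34.9 CPM (log2 fold change -0.73 ± 0.04, edgeR adjusted p = 4.80e-13). Uba1, the main enzyme that activates ubiquitin, had a log2 fold change of -0.72 ± 0.04 (edgeR adjusted p = 4.54e-13).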

How the data were processed

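The data were 6 tables, 1 per library, with expected counts and FPKM per gene. The authors' values rest on mm9, Bowtie2, RSEM and DESeq2, per the submitters' processing notes, with no role or version given. Deposited expected counts, which need not be whole, were rounded for testing, and genes missing in a table were set to 0. Deposited FPKM served for levels and shares between genes. CPM were computed here from expected counts with TMM factors (ES libraries 1.04 to 1.05, XEN libraries 0.951 to 0.96). Genes kept by filterByExpr were tested with the edgeR 4.0.16 quasi-likelihood F test (R 4.3.3, robust, group only, Benjamini-Hochberg at 0.05), and against 2-fold with glmTreat. Standard errors came from log2 CPM with a prior count of 2. A group at 0 was read against 3 counts, and intervals and limits cover counting error only.

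The members and gene lists were chosen with earlier results of these data known. Values in every library are given for catalytic subunits, activators, the inhibitor, Psma8, Psmb11, called members with an absolute log2 fold change of at least 1, and the largest called change of each class in each direction. Of each pathway list, up to 3 called genes with the largest change and a mean of at least 5 CPM are named. Other members and genes given with values, such as Nfe2l1 and Tap1, were chosen after their values were seen. The values of 2 list genes are not reported here. Sem1 was matched to Shfm1 through RefSeq synonyms. Of 957 unnamed gene models, 3 shared an orthology term with exactly 1 member (Psma3, Psmd2 and Adrm1). No 2 libraries of a group agreed within sampling noise (chi-square over its degrees of freedom at least 2.44). The common biological coefficient of variation was 4.75%. The scripts were tested on simulated counts. Alternatives were RLE, upper-quartile and no factors, other filters, a replicate block, each library left out, DESeq2 1.42.0, limma 3.58.1 (voom, and trend on log2(FPKM + 1)) and unnamed models summed into members. Leaving out Sem1 or Psmc3ip was added after seeing the data.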

Additional observations from a re-analysis of the deposited data

How the results depend on the processing

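The calls of 24 of the 49 tested members were the same under every alternative run, and 25 changed in at least 1 (89 of 784 values). Most changes came with upper-quartile factors, library totals or limma-trend on log2(FPKM + 1). In that order, these moved the median log2 fold change of all tested genes by -0.15, -0.13 and -0.086. Higher members numbered 13, 13 and 13 in place of 23, and lower members 22, 21 and 21 in place of 8. By class, these 3 settings gave 3, 3 and 3 higher in the beta ring and 1, 1 and 1 lower, 3, 3 and 3 higher in the base and 4, 4 and 4 lower, 3, 3 and 3 lower in the lid, 6, 6 and 6 lower in the alpha ring, 0, 0 and 0 higher among activators and inhibitor and 3, 2 and 2 lower, and 1, 1 and 1 higher among assembly factors and 4, 4 and 4 lower. RLE factors and a mean of at least 1 CPM gave 2 alpha ring genes lower. The latter, DESeq2 and limma-voom gave 1 assembly factor higher. With each library left out, assembly factors higher numbered 1 to 2 (1 without ES library B or XEN library B) and alpha ring genes lower 1 to 2 (2 without ES library B or XEN library A), and the cause was not tested. Leaving out Sem1 gave 22 members higher, and leaving out Psmc3ip gave 7 lower.

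Under the same 3 settings, in that order, the log2 fold change turned to -0.14, -0.13 and -0.12 for Psma1, -0.15, -0.13 and -0.12 for Psma3, -0.11, -0.099 and -0.090 for Psma4, and -0.045, -0.031 and -0.022 for Psmb4. It turned to -0.10, -0.087 and -0.081 for Psmc2, -0.12, -0.11 and -0.094 for Psmc5, -0.023, -0.0090 and -0.0020 for Psmc6, and -0.019, -0.0057 and -0.00056 for Psmd11. It turned to -0.13, -0.12 and -0.11 for Psmd14 and to -0.10, -0.091 and -0.085 for Psmd7. Under upper-quartile factors it turned to -0.0012 for Psmb6, -0.0056 for Psmd13 and -0.14 for Psme2, of which Psme2 was below 0 also under library totals (-0.13). Taken from expected counts, with no correction for length, the share of Psmb9 was 0.147% in ES and 0.0308% in XEN libraries and that of Psmb10 3.88% and 3.26%. The ratio of XEN over ES of class sums was 1.05, 1.06, 1.07, 1.10 and 0.888 in FPKM for the alpha ring, beta ring, base, lid and assembly factors, and 1.12, 1.14, 1.22, 1.16 and 0.939 in CPM.

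Whether the replicate letters pair the libraries is not given in the labels. Deviations of same-lettered ES and XEN libraries correlated only weakly, at 0.033, 0.0076 and 0.020, and every library correlated best with its own letter. With the letter as a replicate block, 23 members were higher and 8 lower, and 5682 and 6318 of all tested genes, against 5707 and 6337 without it, and the block changed no call of a member. Depth limits the inducible subunits: with 1 to 14 counts in a group, differences in Psmb8, Psmb9 and Psmb11 could not be measured closely.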
